A study of Mus musculus with 6 samples.

Results

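Complement genes were examined in mouse embryonic fibroblasts (MEF) before and after migration through narrow pores. The 9 genes were taken from the 55335 rows of the count table by matching their Ensembl identifiers, without the version, to a fixed list of symbols: C3, C4b, C1ra, C1s1, Cfb, C1qtnf6, Serping1, Cd55 and Cd59a. All 9 have a row in the table, and their measured values played no part in the match, but the list was chosen with earlier results of these data known. Transmigrated cells (Confine) were wild-type MEF recovered below a transwell membrane with 3 μm pores after 15 h, and control cells (Ctrl) were the wild-type parental MEF. Passage through the pores, time in the insert, any difference in serum and the choice of the cells that passed cannot be told apart in this design. The paper's transwell protocol, given for wider pores, has serum only below the insert. The paper does not state the medium used for the sequenced cells in the insert. Polyadenylated RNA was sequenced, and the authors deposited unnormalized read counts for 3 Ctrl and 3 Confine columns. Confine columns 1 and 2 held the same value for each of the 55335 genes and entered as 1 sample, named the repeated Confine library, which left 3 Ctrl and 2 Confine libraries. The labels do not say whether replicates came from separate cultures, so the p-values measure the spread between these libraries, which may be technical.

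Complement is a cascade of proteases and their substrates that marks surfaces for uptake and can puncture membranes. The classical pathway starts when C1q docks on a target and turns on the proteases C1r and C1s, which cut C4 and C2. The lectin pathway does the same through MASP proteases, and the alternative pathway uses factor B, the product of Cfb. All 3 routes meet at C3, and regulators such as C1 inhibitor, CD55 and CD59 hold the cascade back. Most circulating complement is made by the liver, and fibroblasts are known to secrete C1r, C1s and C3 locally.

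Total counts ran from 22287210 to 27853805 in Ctrl and were 27290138 and 32537550 in Confine, and a median gene did not move between the groups after TMM normalization. With library size alone, the median log2 fold change over all tested genes shifted by -0.21, so differences of about that size depend on the scaling. Of 15 fibroblast markers, Col1a1, Col1a2, Vim and Fn1 each had at least 768 normalized CPM (read counts scaled to the normalized library size) on average in Ctrl, while Thy1, Lum and Fap had at most 2 counts in any library. The 15 markers summed to between 9360 and 10400 CPM in Ctrl and between 16900 and 17800 CPM in Confine, with 7 higher and 1 lower by the test used below, and in bulk RNA fewer cells of a type and less RNA per cell cannot be told apart. Leukocyte markers summed to between 16.0 and 18.6 CPM in Ctrl and between 36.9 and 42.0 CPM in Confine. Among these 16 markers Csf1r, Cd68 and Cd14 rose, Lyz2 fell, and 9 had at most 3 counts in any library, with Adgre1, Tyrobp, Cd3e and S100a9 at 0 throughout. Csf1r did not pass by DESeq2, with library size alone, with the replicate block or without any 1 library other than Ctrl replicate 1, and Cd14 did not pass without the repeated Confine library. Endothelial markers summed to 4.59 to 6.20 CPM in Ctrl and 5.54 to 8.77 CPM in Confine, where Vwf rose. Epithelial markers summed to 0.415 to 0.794 CPM in Ctrl and 4.05 to 8.77 CPM in Confine, where Krt19 rose. Vwf and Krt19 had at most 17 and 7 counts in Ctrl and entered the tested genes through their Confine counts. Of 9 endothelial and 9 epithelial markers, 7 and 8 had too few counts to be tested. Among them, Epcam, Krt18 and Cldn5 had 0 counts in every library. The part of such cells in the results below was not tested.

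C3, C1s1 and Serping1 rose in Confine, and none of the 9 genes fell by the test. A gene passed at an adjusted p under 0.05 in the quasi-likelihood test of edgeR, adjusted by Benjamini-Hochberg over all 15881 tested genes. Of the 9 genes, 3 rose (C3, C1s1 and Serping1), 3 were tested and did not pass (C1ra, C4b and C1qtnf6), and 3 had too few counts to be tested (Cfb, Cd55 and Cd59a). Over all tested genes, 12.8% rose and 10.2% fell by the same rule. With the study's cutoff of an absolute log2 fold change above 1.5 added, C3 and Serping1 were called, beside 4.89% of all tested genes called upregulated and 3.11% called downregulated. Both Confine libraries lay above all Ctrl libraries for C3, C1s1, C1ra and Serping1 and below them for C1qtnf6, patterns found in 25.9% and 23.6% of all tested genes. Serping1 entered the tested genes through its Confine counts, so its presence there is not independent of its difference. The smallest p that 3 libraries against 2 allow in a two-sided exact permutation test is 0.1, which C3, C1s1 and Serping1, upward, and Cd59a, downward, reached on log2(CPM + 1).

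**Figure D1:**
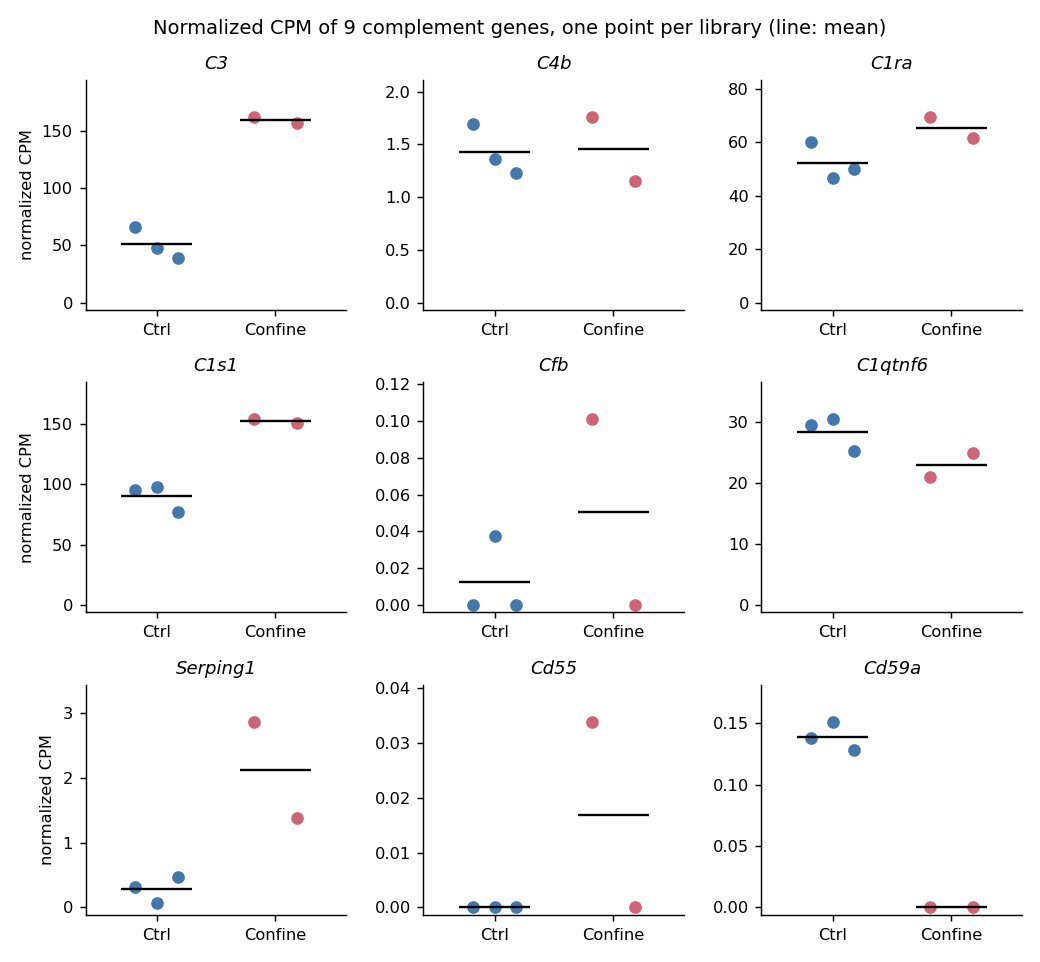
Each panel plots the normalized CPM of 1 complement gene on a linear axis with its own scale, with 1 point per library (3 Ctrl, 2 Confine) and a line at the group mean. C3, C1s1 and Serping1 sit higher in both Confine libraries than in all Ctrl libraries, while Cfb and Cd55 stay at 3 counts or fewer.

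C3, the component on which all pathways converge, is encoded on chromosome 17 (GRCm38, 57203970 to 57228136, minus strand). It had 1907, 1253 and 922 counts in Ctrl replicates 1, 2 and 3, against 4781 in the repeated Confine library and 3959 in Confine replicate 3. On the scale of normalized CPM this was 65.9, 47.4 and 39.2 in Ctrl and 162 and 157 in Confine. The Confine libraries lay close together and well above the highest Ctrl library. The mean rose from 50.8 ± 13.7 CPM (SD, n = 3) to 159 ± 3.06 CPM (SD, n = 2), a log2 fold change of 1.65 (standard error 0.21, edgeR adjusted p = 1.01e-05), or 3.13-fold. The difference stayed past the threshold in all 15 alternative fits, with log2 fold changes from 1.44 to 1.89 and edgeR, DESeq2 or limma-voom adjusted p-values from 3.65e-15 to 7.05e-04. It dropped below the cutoff of 1.5 with library size alone, at 1.44, and without Ctrl replicate 3, at 1.47.

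C1r and C1s are the protease pair of the C1 complex, and their mouse genes C1ra and C1s1 are neighbours on chromosome 6. C1s1 (minus strand, 124530345 to 124542359) had 2753, 2590 and 1822 counts in Ctrl and 4556 and 3806 in the repeated Confine library and Confine replicate 3. Both Confine libraries exceeded the highest Ctrl library. Its mean went from 90.2 ± 11.1 CPM (SD, n = 3) to 153 ± 1.99 CPM (SD, n = 2), with a log2 fold change of 0.76 (standard error 0.18, edgeR adjusted p = 0.00431), or 1.69-fold. Without the repeated Confine library the estimate was 0.75 but no longer passed (edgeR adjusted p = 0.051). C1ra (plus strand, 124512405 to 124523443) had 1736, 1235 and 1176 counts in Ctrl and 2060 and 1551 in Confine. Its Confine values of 69.6 and 61.6 CPM lay only just above the highest Ctrl value of 60.0 CPM. The log2 fold change was 0.33 (standard error 0.18, 95% interval -0.06 to 0.72, edgeR adjusted p = 0.224), which did not pass. Groups that do not overlap are common here, at 49.5% of all tested genes in either direction.

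The proximal promoters of C3 and C1s1, which rose, and of C1ra, whose product pairs with C1s and which did not pass, are given for comparison from RefSeq (GRCm38.p6), each running from 250 bases before to 50 bases after an annotated start. The table holds promoters for 6 of the 9 genes, and the first of 2 listed for C1s1 is shown. Capitals mark every match to TTNNGNAA on either strand, the core pattern of C/EBP transcription factors, and none of the matches overlap each other. The C3 promoter spans chr17:57228087-57228386 on the minus strand, the C1s1 promoter chr6:124542310-124542609 on the minus strand and the C1ra promoter chr6:124512371-124512670 on the plus strand.
C3: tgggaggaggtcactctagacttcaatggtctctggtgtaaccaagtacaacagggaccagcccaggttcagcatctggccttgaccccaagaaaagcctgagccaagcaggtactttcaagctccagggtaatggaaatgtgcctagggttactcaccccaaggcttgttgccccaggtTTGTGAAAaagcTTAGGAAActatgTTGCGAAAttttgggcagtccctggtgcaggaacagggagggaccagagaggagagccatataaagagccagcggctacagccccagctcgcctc
C1s1: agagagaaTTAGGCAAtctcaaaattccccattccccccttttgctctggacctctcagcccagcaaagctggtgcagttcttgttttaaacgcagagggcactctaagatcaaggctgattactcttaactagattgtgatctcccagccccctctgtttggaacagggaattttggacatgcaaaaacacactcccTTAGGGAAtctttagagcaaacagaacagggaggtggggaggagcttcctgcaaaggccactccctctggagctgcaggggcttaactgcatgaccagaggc
C1ra: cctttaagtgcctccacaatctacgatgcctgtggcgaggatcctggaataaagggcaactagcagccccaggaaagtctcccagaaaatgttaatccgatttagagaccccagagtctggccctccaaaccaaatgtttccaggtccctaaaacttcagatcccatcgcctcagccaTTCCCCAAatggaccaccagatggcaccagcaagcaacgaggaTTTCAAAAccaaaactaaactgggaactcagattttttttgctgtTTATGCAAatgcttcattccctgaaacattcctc
The C3 window holds 3 matches, beginning 70, 58 and 45 bases before the start, the C1s1 window 2 and the C1ra window 3. The last C1ra match begins 16 bases after the annotated start. The second listed C1s1 promoter, not shown, holds 1 match, so the counts depend on the start used. The promoters of C1qtnf6, Cd55 and Cd59a, not shown, hold 0 matches each. This pattern is frequent, since 40.7% of the 32851 promoters in the table hold it. An NF-kB site was not found in any of the 3 windows, against 8.46% of all promoters. A match is a description of letters, and no binding was measured.

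Serping1 encodes C1 inhibitor, the serpin that inactivates C1r, C1s and the MASP proteases, and its gene is on chromosome 2 (84765387 to 84775444, minus strand). It had 9, 2 and 11 counts in Ctrl, 85 in the repeated Confine library and 35 in Confine replicate 3. Every Confine value was above every Ctrl value, but the Confine libraries lay apart, at 2.87 and 1.39 CPM. In CPM the mean went from 0.285 ± 0.197 (SD, n = 3) to 2.13 ± 1.05 (SD, n = 2), with a log2 fold change of 2.91 (standard error 0.56, 95% interval 1.72 to 4.09, edgeR adjusted p = 8.29e-04), or 7.51-fold. Without the repeated Confine library the log2 fold change was 2.29 and no longer passed (edgeR adjusted p = 0.0613). Although it had the largest fold change of the 6 tested genes, its level stayed far under those of C3, C1s1 and C1ra.

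C4b encodes complement C4, the substrate of C1s. It lies at 34728380 to 34743882 on the minus strand of chromosome 17 and had 49, 36 and 29 counts in Ctrl and 52 and 29 in Confine. The groups overlapped fully, at 1.43 ± 0.237 CPM (SD, n = 3) and 1.45 ± 0.428 CPM (SD, n = 2). The log2 fold change was 0.03 (95% interval -0.80 to 0.86, edgeR adjusted p = 0.972), an interval that still allows a change as large as that of C1s1 in either direction, and its sign turned with library size alone (-0.18). C1qtnf6 encodes a secreted protein with a C1q-like domain that belongs to the C1q/TNF-related family, and it was listed with that family here. It lies at 78523346 to 78531416 on the minus strand of chromosome 15 and had 858, 808 and 594 counts in Ctrl and 626 in each of the Confine libraries. In CPM, 21.1 and 24.9 in Confine lay below the lowest Ctrl value of 25.3, with a log2 fold change of -0.31 (standard error 0.19, 95% interval -0.71 to 0.09, edgeR adjusted p = 0.271), which did not pass. Of its 13 listed family members 4 were tested and 0 passed by edgeR as fitted here or by DESeq2. C1ql4, on at most 12 counts, had an unadjusted edgeR p under 0.05 and passed, downward, by limma-voom and in the edgeR fits with library size alone and without Ctrl replicate 3.

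The remaining 3 genes were at or near the limit of detection. Cfb, the protease of the alternative pathway (chromosome 17, 34856374 to 34862518, minus strand), had 0, 1 and 0 counts in Ctrl and 3 and 0 in Confine. Of its 2825 exon bases, 79.5% also lie in exons of Gm20547, a gene on the same strand that had 0 counts in every library. Counting that drops reads lying on 2 genes would take such reads from both, and the counting setting is not given in the sources used here, so these values do not show whether Cfb was expressed. Cd55 encodes decay-accelerating factor, which takes C3 convertases apart on the cell surface (chromosome 1, 130439027 to 130462744, minus strand), and had 1 count in the repeated Confine library and 0 in the other 4 libraries. Cd59a encodes a surface inhibitor of the membrane attack complex (chromosome 2, 104095801 to 104115354, plus strand). It had 4, 4 and 3 counts in Ctrl and 0 in both Confine libraries. Its Ctrl level of 0.139 CPM was 2.55-fold above a floor of 3 counts over the Confine group, 0.0548 CPM. That ratio leaves out the counting error of the 11 Ctrl counts, so it is not a lower bound on the difference. Fitted without the filter on low counts, Cd59a had an edgeR adjusted p of 0.17, so the difference did not pass.

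Levels were compared between genes per kilobase of exon (RPKM, here CPM per kilobase). In Ctrl the order was C1s1 at 28.8 ± 3.54 RPKM (SD, n = 3), C1ra at 17.5 ± 2.32, C1qtnf6 at 10.5 ± 1.04 and C3 at 9.88 ± 2.66. C1qtnf6 and C3 overlapped in their libraries, while C1s1 and C1ra stood apart from each other and from both. In Confine the order was C1s1 at 48.7 ± 0.634 RPKM (SD, n = 2), C3 at 31.0 ± 0.596, C1ra at 22 ± 1.90 and C1qtnf6 at 8.51 ± 0.970, with no overlap between neighbours. C3 thus moved from the fourth to the second place. C4b at 0.251 RPKM and Serping1 at 0.122 RPKM followed in Ctrl, and in Confine Serping1 at 0.916 RPKM stood above C4b at 0.255 RPKM.

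**Figure D2:**
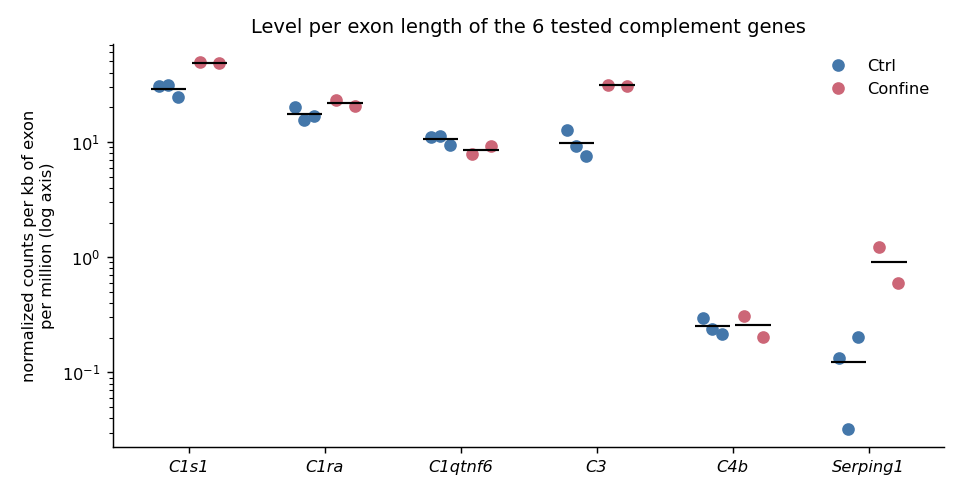
The vertical log axis gives RPKM, here CPM per kilobase of exon, for the 6 tested complement genes, with 1 point per library and a line at each group mean. C3 lies beside C1qtnf6 in Ctrl and between C1s1 and C1ra in Confine.

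Ratios of counts within a library need no scaling between libraries and were added after the values had been seen. C3 had 0.693, 0.484 and 0.506 counts for each C1s1 count in Ctrl, and 1.05 and 1.04 in Confine. The same ratio for C3 against C1ra was 1.1, 1.01 and 0.784 in Ctrl and 2.32 and 2.55 in Confine. Both ratios were higher in Confine, with no overlap (two-sided exact permutation test, p = 0.1, the smallest possible). C1s1 to C1ra was 1.59, 2.1 and 1.55 in Ctrl and 2.21 and 2.45 in Confine, where Ctrl replicate 2 came close to Confine (exact permutation p = 0.2).

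Close copies limit how far these counts belong to 1 gene. C4a, beside C4b, shares 5378 bases at 96.0% identity and had 30, 22 and 29 counts in Ctrl and 12 and 44 in Confine, which overlap. C1rb shares 2432 bases at 97.9% identity with C1ra and had 1.41 CPM in Ctrl and 2.16 CPM in Confine (log2 fold change 0.61, edgeR adjusted p = 0.266). C1s2 shares 2644 bases at 96.0% identity with C1s1. It rose from 0.735 to 1.92 CPM with a log2 fold change of 1.37 (standard error 0.44, edgeR adjusted p = 0.0316), but with library size alone, or without any 1 of Ctrl replicates 2 and 3 and the Confine libraries, it did not pass (edgeR adjusted p up to 0.233). C1ra and C1s1 held far more counts than C1rb and C1s2, so reads placed on the wrong copy would weigh more on the latter. The values for C4a and C4b, which are of like size, are uncertain as a pair. Cd55b had 0 counts throughout and Cd59b at most 1. On the opposite strand, Gm16567 covers 18.4% of the exon bases of C1s1 and had 0 counts, and Gm49490 covers 4.33% of those of C1qtnf6 and had at most 35.

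The rest of the pathway was counted on a list of 64 complement genes, 8 of the 9 genes included, of which 26 were tested and 5 rose and 1 fell by edgeR's adjusted p under 0.05. The share that passed, 6 of 26, is near the 23.0% of all tested genes that passed in either direction. Their median log2 fold change was 0.13, where that of all tested genes was 0. Without the repeated Confine library, 2 of the listed genes passed, C3 and Clu. With the 8 genes left out, 21 of 56 were tested, of which C1s2 and Itgb2 rose and Clu fell.

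In the classical and lectin list of 20 genes, 12 were tested, and C1s1 and C1s2 rose. The 3 chains of C1q, C1qa, C1qb and C1qc, had 0 counts in every library, as did the mannose-binding lectins Mbl1 and Mbl2. Masp1, a protease of the lectin pathway, was among the higher genes at 82.2 CPM in Ctrl and 71.7 CPM in Confine (log2 fold change -0.20, edgeR adjusted p = 0.542). Transcripts of C1r and C1s were measured without those of the recognition subunit they bind. C2, which with C4 forms the classical convertase, had 20 to 37 counts in every library and shares 42.8% of its exon bases with Gm20547.

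Besides C3, 1 of the 4 genes of the alternative pathway list was tested: Cfp, which encodes properdin, at 3.69 CPM in Ctrl and 3.97 CPM in Confine (log2 fold change 0.11, edgeR adjusted p = 0.829). Its sign turned with library size alone (-0.10). Factor D, encoded by Cfd, had at most 1 count. In the terminal list of 7 genes, C6, C7, C8a, C8b and C9 had 0 counts throughout and Hc, which encodes C5, at most 2. Only C8g, the lipocalin-like chain of C8, was tested there, and it did not pass (log2 fold change -0.44, edgeR adjusted p = 0.515). The pore-forming end of the cascade was therefore almost without counts in both groups.

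Of 12 soluble regulators 2 were tested, Serping1, which rose, though not without the repeated Confine library as given above, and Clu, which fell. Clu encodes clusterin, a chaperone that also blocks assembly of the membrane attack complex. It had 328, 143 and 159 counts in Ctrl and 59 and 44 in Confine. Both Confine libraries were lower than all Ctrl libraries, with a log2 fold change of -2.06 (standard error 0.33, edgeR adjusted p = 1.54e-04). Cfi, which encodes the protease factor I, had at most 2 counts in any library. Among 10 membrane regulators, 3 were tested and 0 passed by edgeR, DESeq2 or limma-voom (1, Susd4, had an unadjusted edgeR p under 0.05). Cr1l encodes Crry, the broadly expressed rodent inhibitor of C3 convertases, and was by far the most abundant of them, at 79.8 CPM in Ctrl and 71.0 CPM in Confine (log2 fold change -0.17, 95% interval -0.58 to 0.24, edgeR adjusted p = 0.594).

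Of 11 receptor genes 6 were tested and 1 rose. Itgb2 encodes the β2 integrin chain that pairs with the products of Itgam or Itgax to form complement receptors 3 and 4. It had 21, 20 and 18 counts in Ctrl and 67 and 50 in Confine, with a log2 fold change of 1.5 (standard error 0.39, edgeR adjusted p = 0.00898), which missed the threshold without the repeated Confine library (edgeR adjusted p = 0.0864). The partner chains were almost without counts, Itgam at most 1 and Itgax 0. Itgb2 is known from leukocytes, whose 16 listed markers summed to 16.0 to 18.6 CPM in Ctrl and 36.9 to 42.0 CPM in Confine. Of these, Cd68 (log2 fold change 2.67), Csf1r (1.45) and Cd14 (0.92) rose and Lyz2 fell (-2.64), while Ptprc had at most 2 counts and Adgre1 and Tyrobp had 0. Their part in the Itgb2 value was not tested. Receptors for the fragments C3a and C5a were scarce: C3ar1 had 7 to 26 counts and did not pass (log2 fold change 0.47, edgeR adjusted p = 0.611), and C5ar1 had at most 4.

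**Figure D3:**
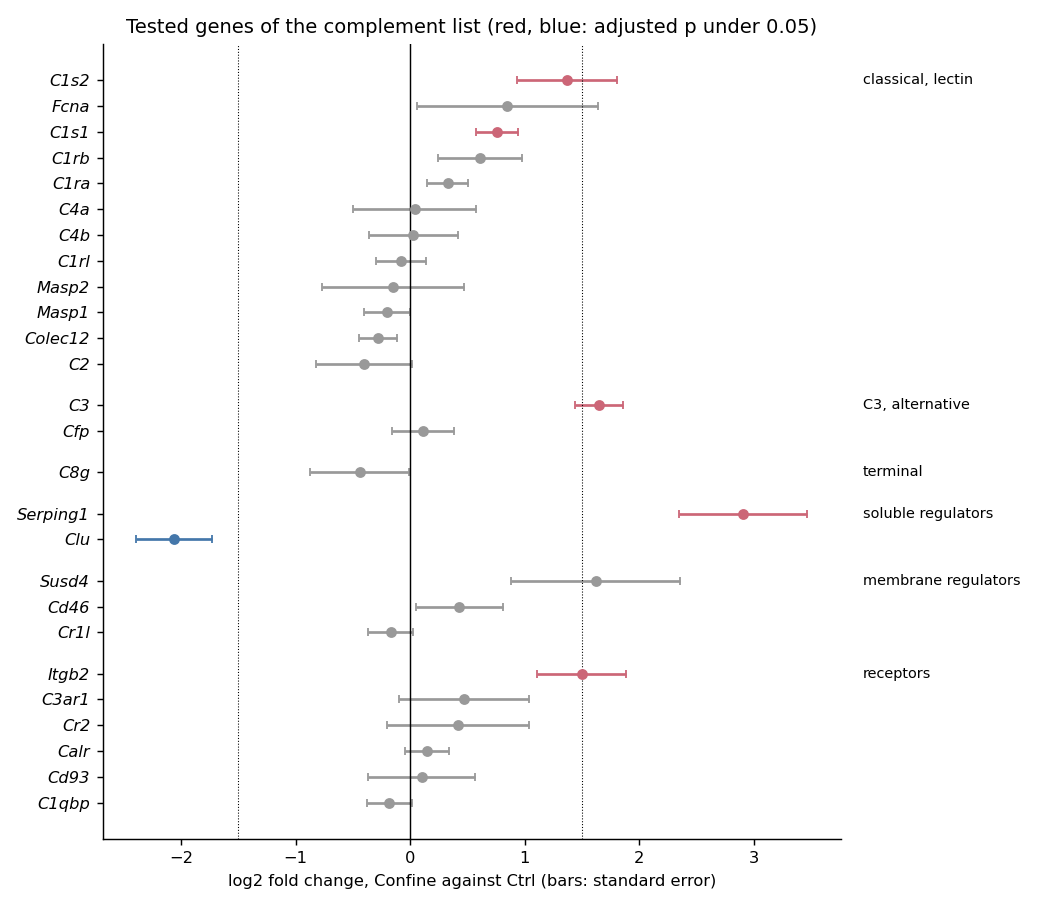
Points give the log2 fold change of Confine against Ctrl for the 26 tested genes of the complement list, ordered by role, and bars give the standard error. Genes with an adjusted p under 0.05 are red (higher) or blue (lower), and dotted lines mark 1.5 in each direction. C3, C1s1, C1s2, Serping1 and Itgb2 are red, and Clu alone is blue.

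Genes that belong with complement in the acute-phase response were listed to give C3 its context, with earlier results of these data known. Of 16 acute-phase genes 12 were tested, and 7 rose and 1 fell, beside 12.8% and 10.2% of all tested genes. Their median log2 fold change was 1.23 against 0 for all tested genes. Lcn2, which encodes the iron-siderophore binding protein lipocalin 2, went from 11.1 to 17.2 CPM in Ctrl to 209 CPM in both Confine libraries (log2 fold change 3.98, standard error 0.22, edgeR adjusted p = 3.06e-10). Saa3, a serum amyloid A, had a log2 fold change of 2.44 (edgeR adjusted p = 1.46e-07) and Cp, the copper oxidase ceruloplasmin, of 2.34 (edgeR adjusted p = 4.59e-08). Serpina3n had 1.75 (edgeR adjusted p = 0.0182) on at most 53 counts, and 1.37 to 2.53 with 1 library left out. It did not pass without the repeated Confine library or without Confine replicate 3. Serpina3g, of the same family, was the gene that fell. Its mean went from 128 CPM in Ctrl to 62.1 CPM in Confine (log2 fold change -1.04, edgeR adjusted p = 4.63e-04). Lcn2, Saa3 and Cp had changes larger than that of C3 and kept them with library size alone (3.78, 2.23 and 2.13). Leukocyte markers also summed higher in Confine, as given above, and their part in these values was not tested.

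Of 27 genes for cytokines, receptors and factors known to induce complement genes, listed with earlier results of these data known, 21 were tested. Of these, 10 rose and 1 fell, beside 12.8% and 10.2% of all tested genes. The count that rose was 7 with library size alone and without the repeated Confine library, and 6 without Confine replicate 3. Lif, an IL-6 family cytokine, rose from 70, 71 and 41 counts in Ctrl to 585 and 534 in Confine (log2 fold change 3.16, standard error 0.24, edgeR adjusted p = 2.53e-08). The receptor genes Il6ra (1.19, edgeR adjusted p = 5.20e-04), Il1r1 (1.15, edgeR adjusted p = 1.53e-04) and Tnfrsf1b (1.09, edgeR adjusted p = 3.22e-04) rose less on the log2 scale. The listed C/EBP factors are given here because the promoter pattern above is that of their family. Cebpd rose with a log2 fold change of 1.07 (edgeR adjusted p = 7.86e-04), while Cebpb did not pass (0.57, edgeR adjusted p = 0.288). Cebpa had 9, 5 and 6 counts in Ctrl and 3 in each Confine library and was not tested. Of the listed NF-kB genes, whose site was searched for above, Relb (0.86, edgeR adjusted p = 0.0036) and Nfkb1 (0.65, edgeR adjusted p = 0.0118) rose. With library size alone Nfkb1 did not pass (0.44, edgeR adjusted p = 0.0794). Nfkb2 (0.45, edgeR adjusted p = 0.0969), Rela (0.34, edgeR adjusted p = 0.182) and Rel (-0.35, edgeR adjusted p = 0.437) did not pass. A part of the C/EBP or NF-kB factors in the complement values was not tested. Il6 itself had a log2 fold change of 0.33 (edgeR adjusted p = 0.525), and Tnf, Ifng and Osm had 0 counts in every library. Il1a had 0 counts in every Ctrl library and 11 and 8 in Confine, and Il1b had 0 in Ctrl and 3 and 6 in Confine. Both had too few counts to be tested. Fitted by edgeR without the filter on low counts, Il1a passed, upward, and Il1b did not.

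**Figure D4:**
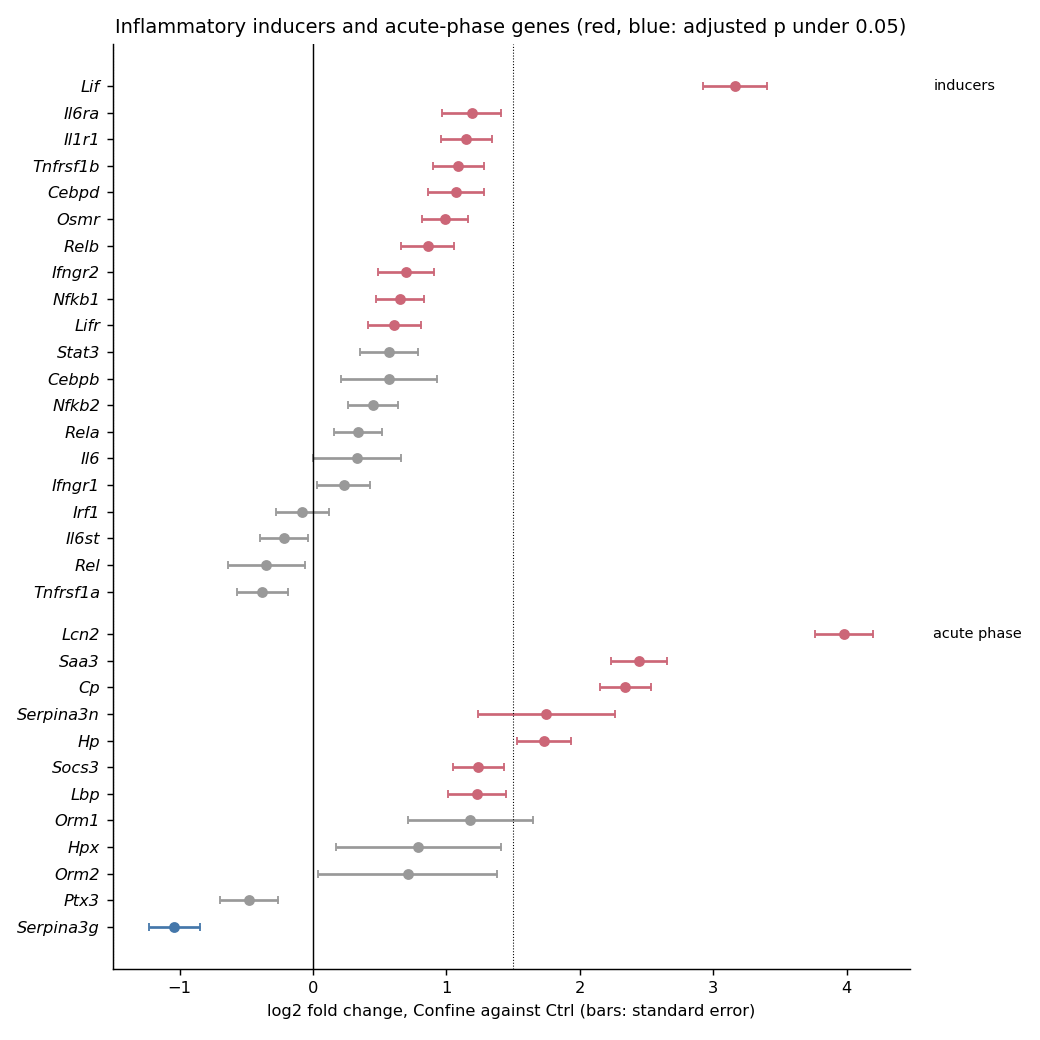
Points give the log2 fold change of Confine against Ctrl with its standard error for 20 of the 21 tested inducers and 12 tested acute-phase genes. Red and blue mark an adjusted p under 0.05, and Lcn2 at 3.98 and Lif at 3.16 lie farthest to the right.

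By position, 3 tested genes on each side of every complement gene were read from the same fit. Around C3, 4 of 6 neighbours passed, all upward, where 23.0% of all tested genes passed in either direction. They were Tubb4a (log2 fold change 3.27, at a mean of only 0.969 CPM), Gm11110 (2.09), Tnfsf9 (1.74) and Trip10 (0.86). Gpr108, the next gene on the higher side, had 0.21 (edgeR adjusted p = 0.519). A shared cause at this locus was not tested. Gm11110 and Tnfsf9 overlap in position. Around C1s1 and C1ra, the neighbour C1rl, a C1r-like protease, had -0.08 (edgeR adjusted p = 0.836) and Lpcat3 -0.14 (edgeR adjusted p = 0.754). Around C4b only Tnxb, which encodes the matrix protein tenascin X, passed (log2 fold change 1.66, edgeR adjusted p = 2.01e-04). Around Serping1, Ypel4 had 1.52 (edgeR adjusted p = 1.60e-04) and Gm19426 -1.02 (edgeR adjusted p = 0.0105). Around Cfb, C1qtnf6, Cd55 and Cd59a no neighbour passed, with log2 fold changes from -0.68 to 0.99.

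The genes whose mean-centred log2 CPM over the 5 libraries came closest to that of C3 were Ralgps2, P2ry2, AC132455.3, Ston2 and Tnfsf9, among 15880 others. Their root mean square difference from C3 was 0.076 to 0.12 on the log2 scale, and their log2 fold changes were 1.61 to 1.84. No gene of the complement list is among these 5, and 5 libraries in 2 groups fix little more than the size of the change.

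**Figure D5:**
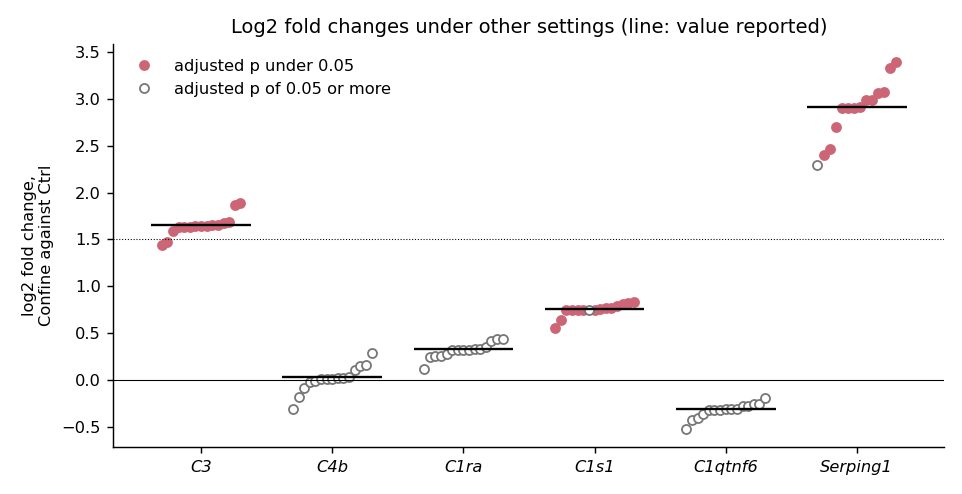
Each point is the log2 fold change of 1 complement gene under another test, scaling, filter, replicate block or left-out library, and the line is the value reported. Filled points have an adjusted p under 0.05. C3 stays between 1.44 and 1.89, Serping1 between 2.29 and 3.39, and C4b scatters around 0.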

How the data were processed

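Polyadenylated RNA of MEF was sequenced in strand-keeping (dUTP) libraries. The authors deposited raw read counts per gene, made, per the labels (the submitters' processing notes), with Trim Galore 0.6.10, HISAT2 2.1.0, SAMtools 1.5 and featureCounts on mm10. The annotation and strand setting are not given in the sources used here. Of 55335 identifiers, 55154 matched GENCODE M21 (GRCm38, the build mm10 names) without the version, which gave names, positions and exon lengths. Columns not used numbered 0.

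Genes kept by filterByExpr (15881) were scaled by TMM, and edgeR 4.0.16 (R 4.3.3) gave quasi-likelihood tests without a replicate block and with Benjamini-Hochberg adjustment over all of them. The standard error is the log2 fold change over the root of the test's F. CPM and RPKM use library size times TMM factor. The floor of 3 counts covers counting error of the group without counts only, as PCR copies of a molecule could not be told from separate molecules. Copies were aligned with blastn 2.17.0 among GENCODE M21 transcripts over at least 100 bases. The test was first checked on simulated data. The alternatives were DESeq2 1.42.0, limma-voom (limma 3.58.1), other scalings, filters and cutoffs, the replicate block, left-out libraries and the identical columns as 2 libraries.

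The 9 genes and the lists were chosen with earlier results of these data known. The genes named were the 9, up to 4 genes per list by largest change among those with an adjusted p under 0.05, close copies, map neighbours and the 5 genes nearest C3. Other listed genes, such as C1qa, Masp1, Cr1l, Itgam, Cebpd and Il6, were named for their role after their values were seen, and Serpina3g for its direction. Some listed genes are not reported here.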

Additional observations from a re-analysis of the deposited data

How the results depend on the processing

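Of the log2 fold changes of the 6 tested complement genes under the alternatives, 82 kept their direction and their side of the threshold. C4b turned to -0.18 with library size alone and to -0.02 with the replicate block and the repeated library as number 1, and ranged from -0.31 to 0.29 with 1 library left out. C1s1 ranged from 0.64 to 0.82 and Serping1 from 2.29 to 3.39 with 1 library left out, and both missed the threshold without the repeated Confine library. The cause was not tested. The number of the 9 genes called past both cutoffs was 2. It was 1 with library size alone, where C3 had 1.44, and 1 with at least 10 counts in every library, since Serping1 was then not tested. It ranged from 1 to 2 with 1 library left out and was 0 with the cutoff made part of the test (glmTreat). The complement list count of 6 ranged from 2 to 6 with 1 library left out and was 3 without the 9 genes, an alternative chosen after seeing the data. Fits that left out a Confine library assume that the lone one varies like the Ctrl libraries.

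With the replicate block, C3 had a log2 fold change of 1.89 with the repeated library as number 2 and 1.64 as number 1, and the number of the 9 genes called was 2 in both. Itgb2 did not pass with number 2 nor C1s2 with number 1. The block moved the genes with an adjusted p under 0.05 from 3654 to 2528 and 4933. Groups shared only 2 numbers, and the correlation of same-numbered differences over 15881 genes was -0.053 and 0.052, so the numbers were not taken to pair the libraries. Of all tested genes with an adjusted p under 0.05, 55.7% rose, but 34% with library size alone. That total fell to 2256 without the repeated Confine library and 2054 without Confine replicate 3, and genes past both cutoffs numbered 1271, or 812 with at least 10 counts in every library. Serping1, C4b, C4a and C1s2 rest on at most 85 counts in a library, which limits them more than C3, C1s1 and C1ra.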
